A study of Mus musculus with 8 samples.

Results

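The insulin-like growth factor (IGF) family was followed here in mouse RNA-seq counts through 10 genes, taken from the table of 23478 genes by their symbols: the ligands Igf1 and Igf2, the receptors Igf1r and Igf2r, and the binding protein genes Igfbp2, Igfbp3, Igfbp4, Igfbp5, Igfbp6 and Igfbp7. All 10 had a line in the table, and 9 had enough reads to be tested, with Igfbp2 left out. Total RNA was sequenced in 8 libraries, 2 biological replicates in each of 4 groups, to compare disseminated cancer cells (DCC) with tumours and to see what a CD4 Th1 response does to them. DCC IFN-gamma were marrow cells of mice whose breast cancer metastasises by itself, cultured with interferon-gamma, the signature cytokine of Th1 cells (dose and time: not given in the sources used here). DCC control were the same kind of cells without it. TUBO is an untreated mouse mammary carcinoma cell line, so its replicates are cultures of 1 line. Early lesion were untreated cancer cells taken from early mammary tumours, and their titles name neuT, the activated rat Erbb2 (HER2) oncogene used as a mammary transgene. The genotype of all 4 groups is labelled WT. The labels call the replicates biological without saying which animals or cultures they came from, so p-values measure the spread between these libraries.

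IGF ligands act through Igf1r, a receptor tyrosine kinase that signals for growth and survival through insulin receptor substrates and PI3 kinase. Igf2r has no kinase and carries Igf2 to the lysosome, which lowers the amount of ligand outside the cell. The binding proteins hold the ligands in blood and matrix, and proteases release them again. Mammary epithelium, fibroblasts and bone cells are all known to make members of the family.

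The DCC label was checked against marker genes. The 10 luminal and general epithelial markers summed to 0.366 to 0.459 CPM (read counts scaled to a common library size) in DCC IFN-gamma and 3.80 to 5.29 CPM in DCC control, against 6108 to 6573 CPM in TUBO and 3216 to 3395 CPM in early lesion. In DCC IFN-gamma 6 of the 10 (Epcam, Esrp1, Grhl2, Cldn3, Cldn4 and Cldn7) had no read in either library. The 8 fibroblast and stromal markers summed to 707 to 1147 CPM in DCC IFN-gamma and 7416 to 8542 CPM in DCC control, against 8.43 to 14.4 CPM in TUBO and 14.8 to 17.0 CPM in early lesion. The libraries labelled DCC thus had little of these 10 epithelial markers and carried stromal ones. The 6 osteoblast markers summed to 134 to 252 CPM in DCC IFN-gamma and 2331 to 2681 CPM in DCC control. In TUBO the osteoblast sum was 119 to 129 CPM and in early lesion 25.9 to 32.1 CPM. The 4 basal epithelial markers summed to 2.86 to 10.6 CPM in DCC IFN-gamma and 64.9 to 80.6 CPM in DCC control. In TUBO they summed to 2.10 to 7.34 CPM and in early lesion to 0.572 to 2.27 CPM. Nearly all of the DCC sums came from Trp63, a basal cell transcription factor, at 2.82 and 10.6 CPM in DCC IFN-gamma and 63.5 and 79.9 CPM in DCC control. The basal keratin genes Krt5, Krt14 and Krt17 had at most 0.791 CPM in DCC control, and Krt5 and Krt14 had no read in DCC IFN-gamma. Macrophage markers (8 of the 9 listed were in the table) summed to 898 to 1237 CPM in DCC IFN-gamma, 82.8 to 85.0 CPM in DCC control, 3.09 to 3.52 CPM in TUBO and 5.59 to 7.58 CPM in early lesion. Reads on genes numbered 15432210 to 30168475 per library. Of all libraries, DCC control replicate 1 with early lesion replicate 2, called the off-gene libraries here, stood apart. In them 49.2% and 44.1% of reads were counted as having no feature (18.3% to 31.0% in the other 6). This class can hold intron reads within genes, so the name off-gene stands for the class only. In the same libraries 47.7% and 63.6% of 1457 olfactory and vomeronasal receptor genes had a read (1.03% to 11.9% in the other 6). DCC control replicate 2 gave the upper end of both ranges, and the libraries below it had at most 2.06% of these receptor genes with a read. Leaving out the off-gene libraries thus leaves DCC control with the highest of the remaining values. Replicates differed by more than sampling noise in every group (chi-square per degree of freedom 17.4 to 160.5 over genes).

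The libraries labelled DCC and the mammary tumour cells differed in their amounts of several binding protein transcripts and of Igf2r. Igfbp4 and Igfbp7 were high in DCC control and low or without a read in TUBO. Igfbp5 and Igf2r were high in TUBO and early lesion and lower in both DCC groups. In the DCC groups Igfbp5 had at most 1.58 CPM, while Igf2r had 37.9 to 119 CPM. Early lesion still had Igfbp4 (39.8 and 39.9 CPM) and Igfbp3 (9.12 and 9.90 CPM), below DCC control. Interferon-gamma went with less Igfbp4 and Igf2r and more Igf1r in DCC. Of these, only the Igfbp4 call held under all 12 alternative fits. The Igf2r and Igf1r calls were lost when DCC control replicate 1 was left out. The ligand genes Igf1 and Igf2 had at most 3.35 CPM in any library.

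**Figure D1:**
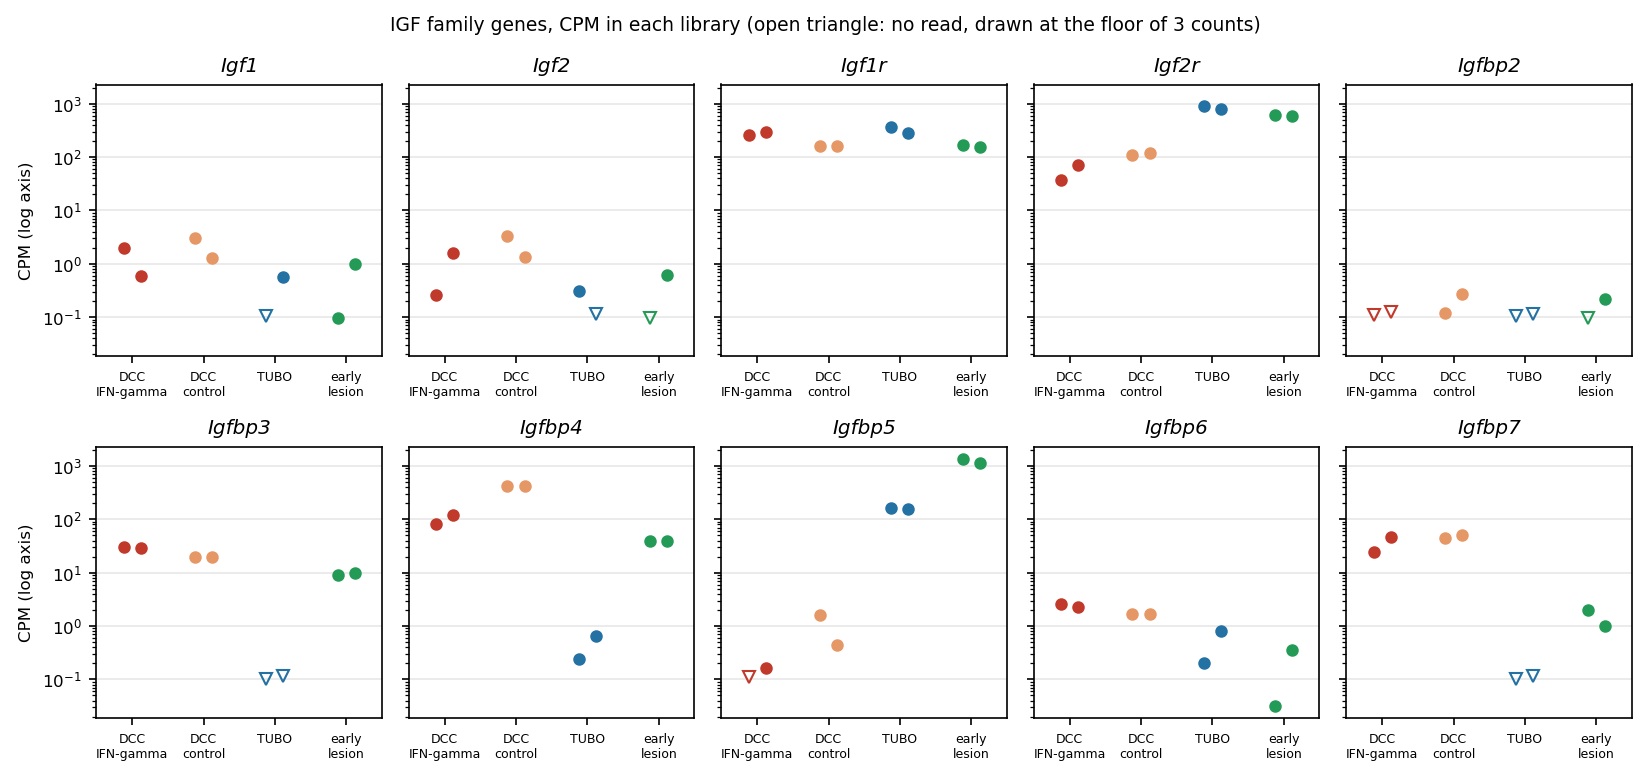
CPM of each of the 10 genes in each library on a log axis, 2 points per group (filled circles) with open triangles at the floor of 3 counts where a library had no read. Igfbp5 and Igf2r lie highest in TUBO and early lesion, and Igfbp4 and Igfbp7 highest in the DCC groups.

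Against DCC control, DCC IFN-gamma had 1 member higher (Igf1r), 3 lower (Igf2r, Igfbp4 and Igfbp5) and 5 not called in edgeR's quasi-likelihood test at a Benjamini-Hochberg adjusted p under 0.05. Of all 17069 genes tested, 12.6% were called higher and 8.83% lower. The median log2 fold change was -0.78 over the 9 members and -0.20 over all genes. The member median is the value of Igf1 itself, which was not called and rests on few reads. With upper quartile scaling the share of higher calls among all calls was 40.7% in place of 58.8%, and the median of all genes moved by -0.20. Leaving out DCC control replicate 1 left 0 members higher and 1 (Igfbp4) lower, as did leaving out both off-gene libraries.

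Against early lesion, DCC control had 3 members higher (Igfbp3, Igfbp4 and Igfbp7), 2 lower (Igf2r and Igfbp5) and 4 not called. The shares over all genes were 19.1% higher and 18.7% lower, and the medians 2.02 for the members and 0.23 for all genes. Against TUBO, DCC control had 3 higher (the same 3 genes) and 3 lower (Igf1r, Igf2r and Igfbp5), with 3 not called, beside 22.1% and 19.9% over all genes and medians of 2.92 and 0.37. Both comparisons share the DCC control libraries. TUBO had 1 member higher than early lesion (Igf1r), 4 lower (Igfbp3, Igfbp4, Igfbp5 and Igfbp7) and 4 not called, beside 11.4% and 12.7% over all genes and medians of -0.95 and -0.27. The member medians are the values of Igf1 for DCC control over early lesion and over TUBO, and of Igf2 for TUBO over early lesion. Neither gene was called, and both rest on few reads, so these medians describe no shift of the family. Genes with no read in a group lay away from the middle, so setting them at their bound could not move the medians.

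**Figure D2:**
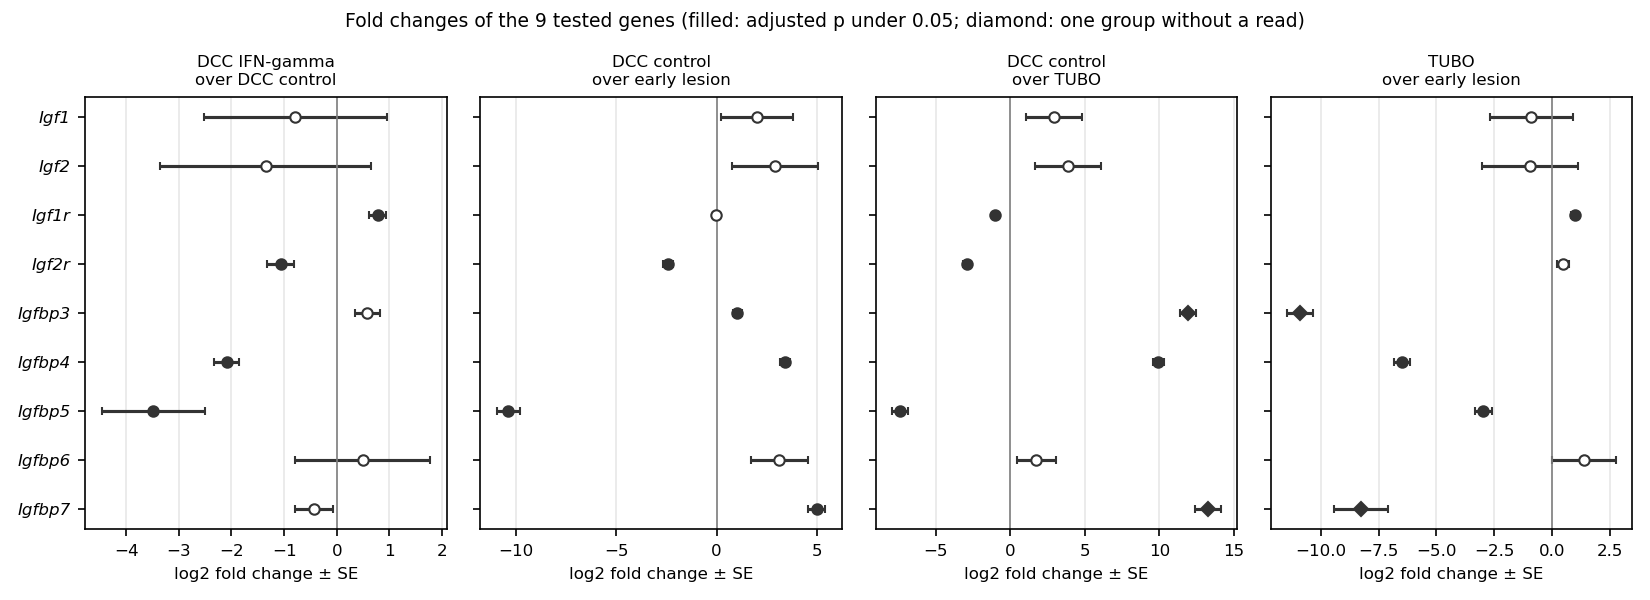
Log2 fold changes with their standard errors for the 9 tested genes in the 4 comparisons, the first named group over the second; filled symbols mark an adjusted p under 0.05 and diamonds a gene with no read in 1 group, whose fitted value depends on the prior count. Igfbp4 and Igfbp7 lie right of 0 and Igfbp5 and Igf2r left of it where DCC control is set over TUBO or early lesion.

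Igf1, the ligand that mediates growth hormone action, had 1.94 and 0.584 CPM in DCC IFN-gamma, 3.10 and 1.27 CPM in DCC control, 0 and 0.572 CPM in TUBO, and 0.0953 and 0.981 CPM in early lesion. Its replicates lay far apart in every group, and the DCC groups overlapped. Igf1 was called in none of the 4 comparisons (adjusted p = 0.767 for DCC IFN-gamma over DCC control, 0.467 for DCC control over early lesion, 0.224 for DCC control over TUBO and 0.738 for TUBO over early lesion in edgeR).

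Igf2, the fetal growth factor encoded by an imprinted gene, had 0.256 and 1.58 CPM in DCC IFN-gamma, 3.35 and 1.35 CPM in DCC control, 0.310 and 0 CPM in TUBO, and 0 and 0.624 CPM in early lesion. These came from 7 and 38 reads in DCC IFN-gamma, 55 and 34 in DCC control, 9 and 0 in TUBO, and 0 and 14 in early lesion. The DCC groups overlapped again, and no comparison was called (adjusted p of 0.649, 0.353, 0.185 and 0.763 in edgeR, in the order used for Igf1). For scale, olfactory and vomeronasal receptor genes, which these cells are not known to use, averaged 0.130 and 0.0255 CPM per kb of exons in DCC control, where Igf1 had 0.313 and 0.128 and Igf2 0.585 and 0.235 CPM per kb. In early lesion replicate 2 they averaged 0.0898 CPM per kb, beside 0.0990 for Igf1 and 0.109 for Igf2. Igf2 exons overlap those of Gm49394 on the same strand and of Igf2os on the other in the GENCODE M21 annotation. Neither of these genes has a line of its own in the count table. Whether reads were counted by strand is not stated for these files, so the source of the few Igf2 reads is uncertain.

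Igf1r (chr7:67952827-68233668, plus strand, GRCm38), the signalling receptor, had 254 and 297 CPM in DCC IFN-gamma, 158 and 162 CPM in DCC control, 359.7 and 288 CPM in TUBO, and 170.1 and 156 CPM in early lesion. The libraries formed 2 bands: DCC IFN-gamma and TUBO overlapped above, and DCC control and early lesion overlapped below. The gene was 1.72-fold higher in DCC IFN-gamma than in DCC control, at 0.78 ± 0.16 on the log2 scale (SE, n = 2 each; adjusted p = 0.00702 in edgeR). The adjusted p was 0.0595 when DCC control replicate 1 was left out and 0.114 when both off-gene libraries were, with a range over all alternatives of 5.91e-05 to 0.114. The fold stayed between 0.58 and 0.90 on the log2 scale.

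Between DCC control and early lesion Igf1r had a log2 fold change of -0.03 ± 0.16, with a 95% interval of -0.39 to 0.33 (adjusted p = 0.947 in edgeR), and the fold change turned positive, at 0.0043 with RLE and 0.042 with upper quartile scaling. DCC control over TUBO came to -1.02 ± 0.16 (adjusted p = 6.05e-04 in edgeR). TUBO stood 0.99 ± 0.16 log2 units above early lesion (adjusted p = 0.00163 in edgeR), a call that missed the threshold when both off-gene libraries were left out (0.0566, range over the alternatives 1.31e-07 to 0.0566).

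Igf2r (chr17:12682406-12769664, minus strand), the receptor that clears Igf2, had 37.9 and 71.1 CPM in DCC IFN-gamma, 108 and 119 CPM in DCC control, 904 and 796 CPM in TUBO, and 618 and 594 CPM in early lesion. No 2 groups overlapped, and the order from low to high was DCC IFN-gamma, DCC control, early lesion and TUBO. DCC control was 5.33-fold lower than early lesion (log2 fold change -2.41 ± 0.27, adjusted p = 6.43e-05) and 7.48-fold lower than TUBO (-2.90 ± 0.27, adjusted p = 1.92e-05) in edgeR. TUBO and early lesion, neighbours in that order, differed by 0.49 ± 0.25 log2 units with a 95% interval of -0.07 to 1.05 (adjusted p = 0.192 in edgeR), which was called in a fit of the 2 groups alone (0.0124, range over the alternatives 0.0124 to 0.528).

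DCC IFN-gamma had 2.09-fold less Igf2r than DCC control, -1.06 ± 0.26 on the log2 scale (adjusted p = 0.0163 in edgeR). The adjusted p missed the threshold with either DCC control library left out (0.0569 for replicate 1, 0.0682 for replicate 2) and with both off-gene libraries left out (0.0916), with a range over the alternatives of 4.70e-06 to 0.0916. Without DCC IFN-gamma replicate 1 the log2 fold change was -0.67, and without replicate 2 it was -1.54. In bulk RNA, fewer cells of a type that makes a transcript and less of it per cell cannot be told apart, here and in every comparison. The Igf2r gene lies over the antisense transcript Airn, with 28354 shared bases and 0 shared exon bases.

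Set per kb of exons, Igf1r stood above Igf2r in DCC IFN-gamma, with Igf1r to Igf2r ratios of 3.71 and 2.32. In DCC control the ratios were 0.812 and 0.754, in TUBO 0.221 and 0.201, and in early lesion 0.153 and 0.146. With the length of the longest coding transcript in place of all exons, DCC control came to 1.14 and 1.06, so the order of the receptors within that group depends on the length used. The order of the groups did not overlap on either length.

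**Figure D3:**
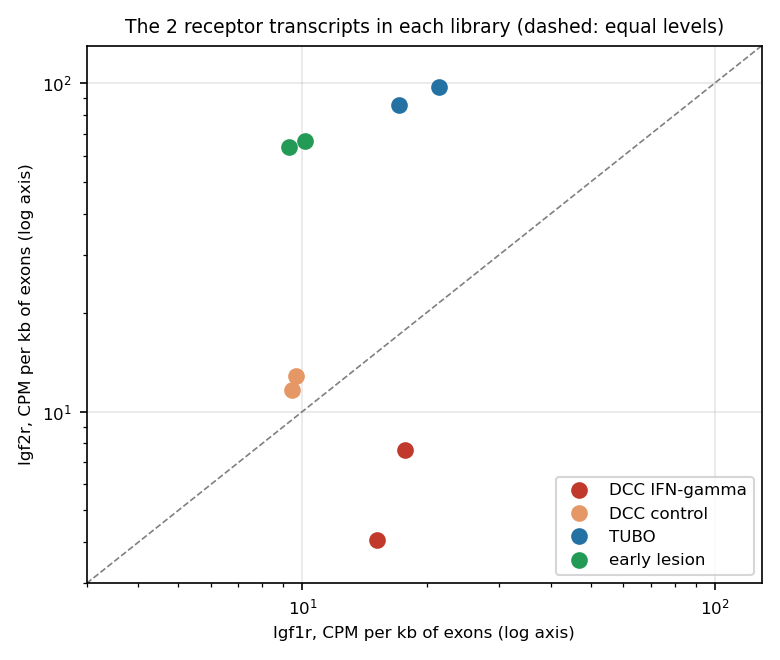
Igf2r against Igf1r in CPM per kb of exons, 1 point per library on log axes, with a dashed line where both are equal. The DCC IFN-gamma libraries lie below the line at ratios of 3.71 and 2.32, and TUBO and early lesion far above it.

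The start regions of Igfbp4, Igfbp5 and Igf2r are shown as examples, chosen after their values were seen: Igfbp4 was higher and the other two lower in DCC control than in TUBO and early lesion. They run from 250 bases before to 50 after the RefSeq start (GRCm38.p6, 5′ to 3′ on the gene's strand). Igfbp4 is chr11:99040994-99041293 on the plus strand, Igfbp5 chr1:72874816-72875115 on the minus strand, and Igf2r chr17:12769657-12769956 on the minus strand. Capitals mark matches to the motifs searched on both strands, which were TATAAA (a core promoter element), CACGTG (E-box), TTCNNNGAA (the STAT site GAS) and the interferon element ISRE.
Igfbp4: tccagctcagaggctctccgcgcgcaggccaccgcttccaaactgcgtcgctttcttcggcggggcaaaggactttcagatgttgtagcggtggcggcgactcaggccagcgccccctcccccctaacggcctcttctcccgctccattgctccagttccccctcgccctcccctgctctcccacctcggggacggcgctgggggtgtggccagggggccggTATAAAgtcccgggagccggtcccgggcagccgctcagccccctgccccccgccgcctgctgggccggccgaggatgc
Igfbp5: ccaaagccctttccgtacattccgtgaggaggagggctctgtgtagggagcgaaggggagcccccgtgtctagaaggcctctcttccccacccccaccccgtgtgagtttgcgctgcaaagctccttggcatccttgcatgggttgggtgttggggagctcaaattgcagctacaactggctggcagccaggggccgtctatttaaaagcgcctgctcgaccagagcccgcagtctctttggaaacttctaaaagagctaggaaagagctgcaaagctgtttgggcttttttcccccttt
Igf2r: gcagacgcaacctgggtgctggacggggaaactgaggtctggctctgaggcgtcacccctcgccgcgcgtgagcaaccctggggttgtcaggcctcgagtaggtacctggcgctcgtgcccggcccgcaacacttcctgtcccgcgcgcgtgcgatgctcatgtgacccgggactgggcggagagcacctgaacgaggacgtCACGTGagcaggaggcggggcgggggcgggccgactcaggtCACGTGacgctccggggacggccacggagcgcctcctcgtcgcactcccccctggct

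The Igfbp4 window held TATAAA at bases -28 to -23 from the start, and the Igf2r window held CACGTG at -48 to -43 and at -7 to -2. The Igfbp5 window held none of the 4 motifs. Over all 32851 RefSeq windows 13.6% held TATAAA, 7.15% CACGTG, 8.30% TTCNNNGAA and 3.44% the ISRE. None of the windows of the 10 members held TTCNNNGAA, and 1 of the 4 Igf2 windows held the ISRE. The GC content was 71.3% for Igfbp4, 56.3% for Igfbp5 and 70.7% for Igf2r, beside a median of 52.7% over all windows. A match or its absence describes these letters only.

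Igfbp4 (chr11:99041244-99054392, plus strand), a binding protein that inhibits IGF action until the protease PAPP-A cleaves it, had 82.8 and 118 CPM in DCC IFN-gamma, 428 and 426 CPM in DCC control, 0.241 and 0.648 CPM in TUBO, and 39.8 and 39.9 CPM in early lesion. No 2 groups overlapped, and DCC control was highest. Igfbp4 fell 4.26-fold in DCC IFN-gamma relative to DCC control, -2.09 ± 0.23 on the log2 scale (adjusted p = 2.22e-04 in edgeR), and kept its call under all 12 alternatives (0.00871 at most). DCC control was 10.7-fold above early lesion (3.42 ± 0.25, adjusted p = 3.08e-06) and stood 9.92 ± 0.36 log2 units above TUBO (adjusted p = 3.44e-08) in edgeR. TUBO over early lesion came to -6.50 ± 0.34 (adjusted p = 2.13e-06 in edgeR). Without TUBO replicate 2, which had the higher of the low TUBO values, these were 10.76 and -7.34.

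The change in Igfbp4 with interferon-gamma ran beside that of marker lists. Of 7 tested stromal markers, 4 (Col1a1, Col1a2, Col3a1 and Lum) were lower in DCC IFN-gamma and 1 (Pdgfra) higher. Of 6 osteoblast markers 3 were lower, and of 8 macrophage markers 7 were higher. Over all genes 8.83% were called lower and 12.6% higher. The osteoblast list summed to 134 to 252 CPM in DCC IFN-gamma and 2331 to 2681 CPM in DCC control. The part of these cell types in the members' values was not tested.

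Igfbp5 (chr1:72857932-72874884, minus strand), a binding protein of bone matrix and of the involuting mammary gland, had 0 and 0.167 CPM in DCC IFN-gamma, 1.58 and 0.435 CPM in DCC control, 164 and 154 CPM in TUBO, and 1344 and 1137 CPM in early lesion. The DCC values came from 0 and 4 reads in DCC IFN-gamma and 26 and 11 in DCC control, against 42296 and 25513 in early lesion. No 2 groups overlapped, and the tumour groups stood far above both DCC groups. DCC control had a log2 fold change of -10.38 ± 0.57 over early lesion (adjusted p = 5.93e-06) and of -7.42 ± 0.52 over TUBO (adjusted p = 2.20e-05) in edgeR. Without DCC control replicate 1 these were -11.46 and -8.50, and without replicate 2 -9.61 and -6.65. TUBO was 7.80-fold lower than early lesion (-2.96 ± 0.39, adjusted p = 0.00144 in edgeR).

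Within DCC, Igfbp5 was called lower with interferon-gamma (-3.48 ± 0.98, adjusted p = 0.0433 in edgeR), on the few reads given above. The adjusted p missed the threshold with a replicate block (0.0709) and with only these 2 groups fitted (0.105). It also did so with DCC control replicate 1 (0.116), DCC IFN-gamma replicate 1 (0.181) or both off-gene libraries (0.152) left out, with a range over the alternatives of 1.54e-08 to 0.181. Its log2 fold change ran from -7.50 without DCC IFN-gamma replicate 2 to -2.41 without DCC control replicate 1, and was -4.25 without DCC control replicate 2. Per kb of exons Igfbp5 had 0 and 0.0278 CPM in DCC IFN-gamma, against 0.263 and 0.0725 CPM in DCC control. The olfactory and vomeronasal receptor genes averaged 0.00970 and 0.00620 CPM per kb in DCC IFN-gamma, against 0.130 and 0.0255 in DCC control, and the part of this background in the drop was not tested. Igfbp2, the neighbour of Igfbp5 at 5457 bases with 0 genes between them and the opposite strand, had 0 reads in both TUBO and both DCC IFN-gamma libraries, 2 and 7 in DCC control, and 0 and 5 in early lesion. It was too low to test.

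Igfbp3 (chr11:7206086-7213923, minus strand), the main IGF carrier of blood, had 29.8 and 28.6 CPM in DCC IFN-gamma, 19.4 and 19.6 CPM in DCC control, 0 and 0 CPM in TUBO, and 9.12 and 9.90 CPM in early lesion. No 2 groups overlapped. DCC control was 2.05-fold above early lesion (1.04 ± 0.24, adjusted p = 0.00684 in edgeR), a call that missed the threshold with early lesion replicate 1 (0.0702) or both off-gene libraries (0.105) left out (range over the alternatives 0.00109 to 0.105). Against the floor of 3 counts per library, Igfbp3 was at least 179-fold higher in DCC control than in TUBO (adjusted p = 2.42e-07) and at least 87.3-fold lower in TUBO than in early lesion (adjusted p = 3.41e-06 in edgeR). The log2 fold change of 0.58 ± 0.23 for DCC IFN-gamma over DCC control was not called (adjusted p = 0.114 in edgeR), with a 95% interval of 0.05 to 1.11.

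Igfbp7 (chr5:77349240-77408041, minus strand), a secreted protein of vessels and stroma that binds IGFs weakly, had 24.8 and 46.8 CPM in DCC IFN-gamma, 44.6 and 51.5 CPM in DCC control, 0 and 0 CPM in TUBO, and 1.97 and 0.981 CPM in early lesion. Both DCC groups overlapped each other and stood above the tumour cells. DCC control was 31.8-fold above early lesion (4.99 ± 0.44, adjusted p = 6.83e-05 in edgeR), and the log2 value was 5.61 without early lesion replicate 1. It was at least 441-fold above TUBO (adjusted p = 1.02e-05 in edgeR). TUBO was at least 13.5-fold below early lesion (adjusted p = 0.00185 in edgeR). With interferon-gamma its log2 difference was -0.43 ± 0.36 (adjusted p = 0.416 in edgeR). Igfbp7 shares 85 exon bases with Polr2b on the opposite strand.

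Igfbp6, a binding protein that prefers Igf2, had 2.56 and 2.25 CPM in DCC IFN-gamma, 1.70 and 1.70 CPM in DCC control, 0.207 and 0.801 CPM in TUBO, and 0.0318 and 0.357 CPM in early lesion. Both DCC groups lay above both tumour groups, but Igfbp6 was called in none of the 4 edgeR comparisons (adjusted p of 0.800, 0.117, 0.296 and 0.468, in the order used for Igf1). Between DCC control and early lesion its log2 fold change of 3.14 ± 1.43 was called by DESeq2 (0.0259) and by edgeR without early lesion replicate 2 (0.0341), with a range over the alternatives of 0.0259 to 0.333. It came to 5.54 without early lesion replicate 2 and to 2.24 without early lesion replicate 1.

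Per kb of exons, Igfbp4 made up 36.7% and 34.9% of the summed binding protein transcripts in DCC IFN-gamma, against 68.3% and 65.6% in DCC control. Igfbp7 made up 40.2% and 50.5% in DCC IFN-gamma, against 26.0% and 29.0% in DCC control. For Igfbp3 the shares were 18.6% and 11.9% in DCC IFN-gamma, against 4.37% and 4.26% in DCC control. With the longest coding transcript as length, Igfbp4 (38.0%) stood above Igfbp7 (36.4%) in DCC IFN-gamma replicate 1. Igfbp5 made up 99.1% and 96.7% in TUBO and 94.3% and 93.4% in early lesion. The summed level was 51.1 and 76.6 CPM per kb in DCC IFN-gamma, 142 and 147 in DCC control, 27.5 and 26.6 in TUBO, and 237 and 203 in early lesion. These shares and sums are descriptions with no test.

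**Figure D4:**
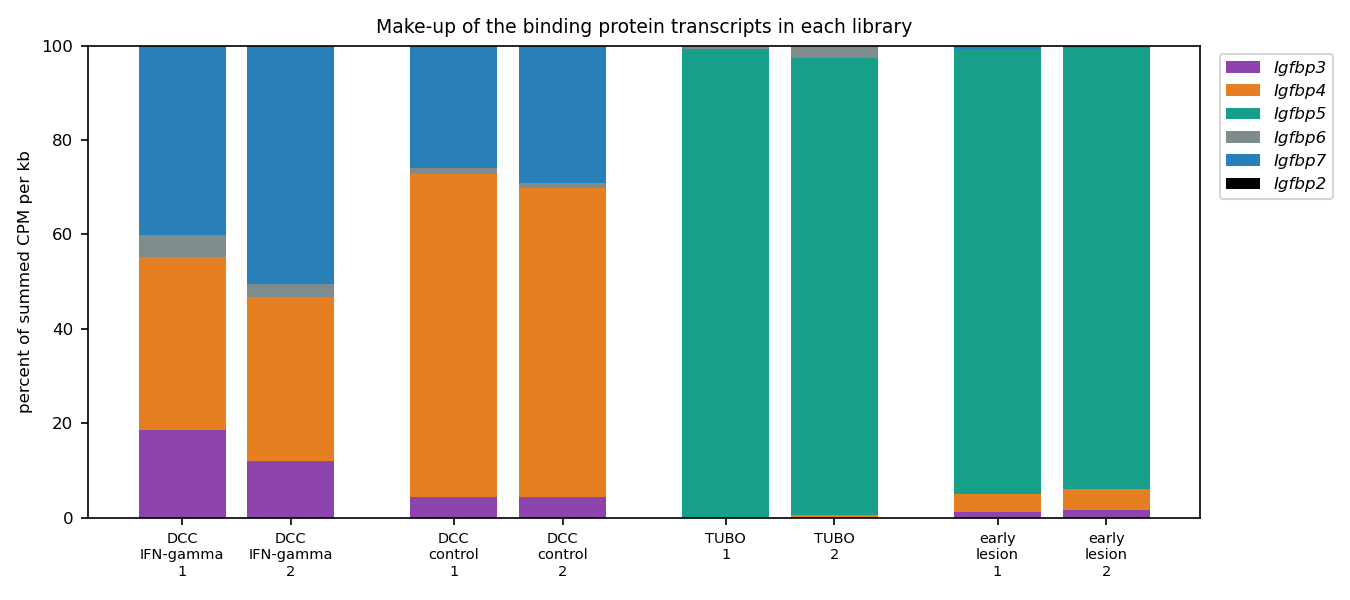
Stacked bars of the share of each binding protein gene in the summed CPM per kb of exons of the 6 genes, 1 bar per library, 2 per group. Igfbp5 fills over 93% of the bars of TUBO and early lesion, and Igfbp4 with Igfbp7 most of the DCC bars.

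Related genes were counted from lists chosen with earlier results of these data known. Of all genes tested, 12.6% were called higher and 8.83% lower in DCC IFN-gamma than in DCC control. For DCC control these shares were 19.1% and 18.7% against early lesion, and 22.1% and 19.9% against TUBO. For TUBO against early lesion they were 11.4% and 12.7%. The list counts below stand beside these shares, and no list was tested against them. Of 8 tested genes for other binding proteins and for release of IGFs, 0 were called between DCC IFN-gamma and DCC control in edgeR. At an unadjusted p under 0.05 there were 3, and 1 by DESeq2. The list median was -1.97 with genes at their bound and -2.26 as fitted, beside -0.20 over all genes. DCC control had 5 higher and 0 lower than early lesion (median 3.82, all genes 0.23). Htra1, a secreted protease of matrix and binding proteins, had 33.1 and 45.9 CPM in DCC control and 0.477 and 1.52 CPM in early lesion (log2 fold change 5.36 ± 0.68, adjusted p = 0.00130 in edgeR). Without early lesion replicate 1 it was 4.70, without replicate 2 6.36 and without both off-gene libraries 6.58. Against TUBO 3 were higher and 1 lower (median 3.24 with genes at their bound, all genes 0.37), with Htra1 at least 363-fold above TUBO. TUBO had 1 higher and 2 lower than early lesion (1 and 0 with both off-gene libraries left out; median 0.10, all genes -0.27). Stc2, an inhibitor of PAPP-A, was the gene that was higher, at 237 and 210 CPM in TUBO against 16.2 and 16.9 CPM in early lesion (log2 fold change 3.76 ± 0.20, adjusted p = 1.78e-06 in edgeR).

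Of 28 genes that relay the receptor signal, 8 were higher, 6 lower and 14 not called in DCC IFN-gamma against DCC control (median -0.21, all genes -0.20). With both off-gene libraries left out it was 2 higher and 2 lower. Pik3cb, a catalytic subunit of PI3 kinase, had 51.7 and 45.7 CPM in DCC IFN-gamma against 11.8 and 10.3 CPM in DCC control (log2 fold change 2.14 ± 0.18, adjusted p = 3.23e-05 in edgeR). Irs1, a docking protein of Igf1r, was lower, at 173 and 128 CPM against 386 and 449 CPM in DCC control (-1.47 ± 0.18, adjusted p = 3.50e-04 in edgeR). Pik3r1, a regulatory subunit, was lower as well (-1.40 ± 0.14, adjusted p = 1.03e-04 in edgeR).

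DCC control against early lesion had 8 of these 28 genes higher, 8 lower and 12 not called, and against TUBO 6 higher, 8 lower and 14 not called (medians -0.02 and -0.03). With both off-gene libraries left out these were 2 and 4, and 3 and 6. Grb10, an adaptor that restrains Igf1r and insulin receptor signals, had 608 and 624 CPM in DCC control, against 0.552 and 0 CPM in TUBO and 0.222 and 2.10 CPM in early lesion (log2 fold change 9.17 ± 0.95 over early lesion, adjusted p = 4.26e-04 in edgeR). The fold was 8.20 on the log2 scale without early lesion replicate 1 and 11.40 without replicate 2. Irs2, the other widely made docking protein, had 83.7 and 84.0 CPM in TUBO against 16.8 and 18.2 CPM in early lesion (log2 fold change 2.26 ± 0.21, adjusted p = 4.50e-05 in edgeR). TUBO had 5 of the 28 higher and 4 lower than early lesion (median 0.02), and 2 of each with both off-gene libraries left out.

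Of 12 tested imprinted genes and regulators of Igf2 mRNA, 2 were higher and 2 lower in DCC IFN-gamma against DCC control (median -1.51, all genes -0.20), and 2 and 1 with both off-gene libraries left out. Hmga2, a chromatin protein of embryonic and tumour cells, had 2006 and 1395 CPM in DCC IFN-gamma against 127 and 124 CPM in DCC control (log2 fold change 3.76 ± 0.21, adjusted p = 2.32e-06 in edgeR). DCC control had 2 higher and 3 lower than early lesion (median 2.02), and 3 higher and 1 lower than TUBO (median 3.39 with genes at their bound). Fewer were called higher than TUBO when both off-gene libraries were left out. TUBO had 2 higher and 2 lower than early lesion (median -1.32 with genes at their bound), and 2 and 1 without both off-gene libraries. Igf2bp2, an RNA-binding protein of Igf2 mRNA, had 235 and 244 CPM in DCC control, against 10.2 and 13.2 CPM in TUBO and 2.57 and 2.18 CPM in early lesion (6.64 ± 0.22 over early lesion, adjusted p = 1.91e-08 in edgeR). The imprinted gene Peg3 ran the other way, at 25.4 and 42.5 CPM in DCC control, 737 and 591 CPM in TUBO, and 1223 and 1050 CPM in early lesion (-5.06 ± 0.40 over early lesion, adjusted p = 2.81e-05 in edgeR).

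Of the 7 genes of the growth hormone axis, 2 were higher and 0 lower in DCC IFN-gamma than in DCC control (median 0.48, all genes -0.20), and 0 were called with both off-gene libraries left out. DCC control had 1 higher and 5 lower than early lesion (median -1.33), with 0 and 4 when both were left out. The counts against TUBO were 1 and 5 (median -1.04), and TUBO had 1 higher and 1 lower than early lesion (median -0.29). In both of these comparisons fewer genes were called when both off-gene libraries were left out. Socs2, a feedback inhibitor of growth hormone signals, had 13.6 and 17.2 CPM in DCC control, against 349 and 339.8 CPM in TUBO and 342 and 312 CPM in early lesion (log2 fold change -4.40 ± 0.36 over early lesion, adjusted p = 3.33e-05 in edgeR). Ghr, the growth hormone receptor, had 225 and 183 CPM in DCC IFN-gamma against 80.1 and 87.1 CPM in DCC control (log2 fold change 1.29 ± 0.24, adjusted p = 0.00499 in edgeR), which missed the threshold without DCC control replicate 1 (0.0511) and without both off-gene libraries (0.0818; range over the alternatives 6.90e-09 to 0.0818).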

How the data were processed

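Per the labels' protocols, total RNA was purified on RNeasy columns and library preparation used a Nugen Ovation kit for mouse RNA. The authors deposited 1 table of raw read counts per gene symbol for all 8 libraries, with TopHat, HTSeq 0.6.1 and mm10 named per the submitters' processing notes. Annotation, strand setting and filters: not given in the sources used here. In all 23483 lines were listed. The 5 closing lines, which name no gene and held 35.2% to 63.7% of a library's reads, stayed out of library sizes and tests, and 0 columns of samples were left unused. The members and lists were chosen with earlier results of these data known.

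From the counts, CPM were computed with TMM-normalised library sizes, so that the floor of 3 counts is 0.0953 to 0.183 CPM. The floor covers counting error only, since the reads carry no molecular identifiers. The test was edgeR 4.0.16 in R 4.3.3 (quasi-likelihood, robust, 4 group means over 8 libraries, 4 residual degrees of freedom). filterByExpr with a minimum count of 10 left 17069 genes, and p-values were adjusted over all of them by Benjamini-Hochberg. The common biological coefficient of variation was 0.4158. The standard error is the absolute log2 fold change over the square root of F. The code was tested on simulated data. Lengths and coordinates come from GENCODE M21 (GRCm38), with exons of all transcripts joined.

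All 10 members are named. Of each related list, the rule named per comparison the 3 called genes of largest absolute log2 fold change with at least 5 CPM in the higher group, and the text gives part of these, chosen after their values were seen. The alternatives were RLE and upper quartile scaling, no filter, 50 counts in 2 libraries, a replicate block, DESeq2 1.42.0, the 2 groups alone, and leaving out each library or DCC control replicate 1 with early lesion replicate 2. The named related genes under these settings, the list counts without both libraries and the longest transcript length were added after seeing the data.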

Additional observations from a re-analysis of the deposited data

How the results depend on the processing

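Over 427 alternative values of the members' fold changes, 400 kept direction and side of the threshold, 13 were weaker, 3 passed it newly and 11 changed sign. Of 648 such values for the named related genes the numbers were 610, 27, 9 and 2. Of these sign changes 0 were called with either sign. Igf1r between DCC control and early lesion (-0.03) came to 0.0043 with RLE factors, 0.042 with upper quartile factors, 0.0053 with the stricter filter, 0.0037 in DESeq2 and 0.038 without early lesion replicate 1, against -0.090 without replicate 2. Between TUBO and early lesion, leaving out early lesion replicate 2, alone or with DCC control replicate 1, gave 1.52 and 1.53 for Igf1 (-0.89), 5.06 and 5.13 for Igf2 (-0.95), and 0.361 and 0.360 for Grb10 (-1.87). Without TUBO replicate 1 Igf1 was 0.02, Igf2 -5.96 and Grb10 -7.76, and without TUBO replicate 2 Igf1 was -6.75 and Igf2 0.02. Members called higher in DCC IFN-gamma came to 0 with both off-gene libraries (DCC control replicate 1, early lesion replicate 2) left out, and members called lower to 1. Leaving out 1 library gave 0 to 1 higher and 1 to 3 lower. Between DCC control and early lesion it gave 2 to 4 higher and 2 to 2 lower, between DCC control and TUBO 3 to 3 of each, and between TUBO and early lesion 1 to 1 higher and 4 to 4 lower. Members higher in TUBO than in early lesion were 2 with only these groups fitted and 0 with both off-gene libraries left out. Among related genes DESeq2 called 7 imprinted genes and Igf2 mRNA regulators higher in DCC control than in TUBO (edgeR: 3), 4 lower in DCC IFN-gamma (edgeR: 2), and 8 relay genes lower in TUBO than in early lesion (edgeR: 4). The cause was not tested.

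Of all genes, DCC IFN-gamma had 2148 higher and 1508 lower than DCC control. These were 1193 and 827 without DCC control replicate 1, 1017 and 637 without both off-gene libraries, and 2272 lower in DESeq2. DCC control had 3253 higher and 3188 lower than early lesion, and 2054 and 2058 without both off-gene libraries. TUBO had 1943 higher and 2174 lower than early lesion. Leaving out 1 library lowered the first to 1036 to 1218 and the second to as few as 1278, and leaving out both off-gene libraries gave 793 and 1151. In the fit with no filter adjusted p-values may be too small.

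The labels number replicates 1 and 2 in each group and say nothing more of a pairing. Same-numbered libraries had correlations of -0.43 to 0.0957 in their deviations, so the block rests on a number alone. With the replicate block DCC IFN-gamma had 1 member higher and 2 lower, with 2061 and 1420 over all genes. The 6 member counts of the other comparisons were as without it. Depth limits the ligands, Igfbp2, Igfbp6 and the DCC values of Igfbp5, which rest on few reads.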
